A study of Mus musculus with 6 samples.

Results

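TDP-43 is an RNA-binding protein of the nucleus that recognizes UG-rich stretches of RNA, keeps unannotated exons out of mRNAs and limits the amount of its own mRNA. It belongs to a group of RNA-binding proteins, many of which have RNA recognition domains and disordered, glycine-rich or glutamine-rich tails. Proteins of this group gather in ribonucleoprotein granules and have been linked to amyotrophic lateral sclerosis (ALS) through mutation or through inclusions in motor neurons. *Tardbp*, which encodes TDP-43, and 8 genes of this group were followed here in endothelial cells (ECs) of the mouse spinal cord. The 8 relatives were the nuclear matrix gene *Matr3*, the hnRNP A genes *Hnrnpa1*, *Hnrnpa2b1* and *Hnrnpa3*, the FET family genes *Taf15* and *Ewsr1*, and *Tia1* and *Atxn2*, whose proteins join stress granules. They were taken by symbol from a table of 56748 genes, in which each of the 9 symbols occurs once, and all 9 passed the filter on low counts. The question was whether any relative was higher where *Tardbp* was lower.

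The samples were ECs sorted by FACS from spinal cords of P16 mice, with 1 library per mouse, and the conjugated antibodies that the study lists are to CD31, CD45 and the erythroid antigen TER-119. The 3 control mice carried the floxed *Tardbp* allele (Tardbpflox) without Cre, and the 3 *TDP-43iΔEC* mice carried the same allele with Cdh5(PAC)-CreERT2, a tamoxifen-inducible Cre driven by the promoter of the EC cadherin gene *Cdh5*. All 6 mice received tamoxifen (1 mg/mL) in 3 daily injections from P5 to P7, so the control mice share the floxed allele and the drug but not the Cre. The allele was recombined in the mouse and the cells were sorted afterwards, so a library can hold both recombined and unrecombined ECs.

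Estimated counts summed to between 25704871 and 47270654 per library, and the lowest 2 totals were those of *TDP-43iΔEC* mice 2 and 3. Levels are given as CPM, counts scaled to a common library total with TMM factors, and 3 counts corresponded to 0.0617 to 0.116 CPM. The 6 EC markers *Pecam1*, *Cldn5*, *Kdr*, *Flt1*, *Vwf* and *Cdh5* were all present and summed to between 9886 and 13243 CPM in control mice and between 9017 and 10503 CPM in *TDP-43iΔEC* mice. Of the other cell types, mural cell markers (5 of 5 with counts) summed to 510 to 885 CPM in control mice and 387 to 923 CPM in *TDP-43iΔEC* mice, and fibroblast markers (5 of 5) to 37.4 to 44.2 and 12.6 to 39.8 CPM. Microglia and macrophage markers (3 of 5 with counts, *Adgre1* and *Itgam* at 0 in every library) stayed at or under 8.14 CPM. Red blood cell markers (5 of 5) did not overlap between the groups, with 6935 to 10576 CPM in control mice and 2034 to 2884 CPM in *TDP-43iΔEC* mice, and 4 of the 5 passed the threshold as lower in limma, among the 14 genes called lower. The ribosomal RNA gene *Rn18s-rs5* held 14.8% to 18.5% of the counts in control mice and 8.04% to 13.6% in *TDP-43iΔEC* mice. These shares also did not overlap, where 15.3% of all genes tested had groups that did not. The part of the other cell types and of the ribosomal RNA in the values below was not tested. Without ribosomal RNA, hemoglobin and mitochondrial genes the log2 fold change of *Tardbp*, -1.62 with them, was -1.59.

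In GRCm39, *Tardbp* (ENSMUSG00000041459.16) occupies chromosome 4 between 148696839 and 148711490, on the minus strand. Its annotated canonical transcript has 6 exons, and the *loxP* sites flank exon 3 (148706406 to 148706569), which is shown because it is the piece that Cre removes. It was read from GRCm39 on the minus strand at chr4:148706396-148706579, with the exon in capitals and 10 intron bases on each side in lower case.
Tardbp exon 3: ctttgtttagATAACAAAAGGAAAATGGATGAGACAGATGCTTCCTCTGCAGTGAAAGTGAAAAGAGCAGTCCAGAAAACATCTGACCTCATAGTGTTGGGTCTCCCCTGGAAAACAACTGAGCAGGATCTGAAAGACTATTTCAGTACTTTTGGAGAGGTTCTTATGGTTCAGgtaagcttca
The exon is 164 bp long, lies wholly within the coding sequence, and holds 54 whole codons with 2 bases left over, so a transcript joined from exon 2 to exon 4 changes reading frame. Exon 3 makes up 2.19% of the canonical transcript, whereas the last exon makes up 85.6%. The deposited values count the whole gene, so a transcript that lacked only exon 3 would keep nearly all of its countable length.

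*Tardbp* was lower in every *TDP-43iΔEC* library. It had 55.3, 61.9 and 58.5 CPM in control mice 1, 2 and 3 (from 2372, 2564 and 2550 counts) and 26.6, 16.1 and 11.8 CPM in *TDP-43iΔEC* mice 1, 2 and 3 (from 1295, 503 and 305 counts). The control mice lay close together, with a coefficient of variation of 5.67%, against 42.0% for the *TDP-43iΔEC* mice. Relative to the control mean, 45.5%, 27.6% and 20.1% of *Tardbp* remained in *TDP-43iΔEC* mice 1, 2 and 3. The means were 58.5 ± 3.32 and 18.2 ± 7.64 CPM (SD, n = 3 mice each). In limma, the log2 fold change was -1.62 (standard error 0.41), that is 0.325-fold with a 95% confidence interval from 0.171-fold to 0.616-fold.

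By its unadjusted p (0.00332, limma), *Tardbp* ranked 150 among the 13107 genes tested, and its adjusted p was 0.287 by the Benjamini-Hochberg method. With limma, 18 genes passed an adjusted p of 0.05, or 0.137% of the genes tested, and *Tardbp* was not one of them. With DESeq2, which called 1.97% of the genes that it adjusted, *Tardbp* passed with an adjusted p of 0.0216. The exact permutation test of the 6 CPM values gave p = 0.1, the smallest that 3 against 3 mice allow. In such bulk samples, fewer cells with an intact allele and less *Tardbp* mRNA in each cell cannot be told apart.

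Within the *TDP-43iΔEC* mice, oligodendrocyte and astrocyte markers had the same order as *Tardbp*, and microglia and macrophage markers the opposite order. The microglia and macrophage markers summed to 0.226, 1.09 and 8.14 CPM in *TDP-43iΔEC* mice 1, 2 and 3. Red blood cell markers (2034, 2156 and 2884 CPM) also had the opposite order. Mural cell markers (445, 923 and 387 CPM) had another order, as did EC and neuronal markers, and fibroblast markers (39.82, 39.78 and 12.6 CPM) had that of *Tardbp*. Few orders are possible with 3 mice, so these are a description. The 5 oligodendrocyte markers (all with counts) summed to 305, 436 and 608 CPM in control mice 1, 2 and 3 and to 491, 53.9 and 14.7 CPM in *TDP-43iΔEC* mice 1, 2 and 3. The 4 astrocyte markers (all with counts) summed to 13.3, 29.5 and 16.4 CPM in control mice and to 23.3, 5.55 and 0.501 CPM in *TDP-43iΔEC* mice. *TDP-43iΔEC* mouse 1, which kept the most *Tardbp*, thus also had the highest oligodendrocyte and astrocyte sums of its group. Mouse 3 was lowest on all 3 of these measures. Neuronal markers (5 of 6 with counts, *Tubb3* at 0) ranged from 5.13 to 12.0 CPM in control mice and from 0.738 to 2.00 CPM in *TDP-43iΔEC* mice, without overlap. The exact permutation test of these sums gave p = 0.1, the smallest possible, and 0 of the 3 neuronal markers tested in limma passed the threshold. Of all genes tested, 15.3% had groups that did not overlap. The part of the other cell types in the *Tardbp* difference was not tested, and without *TDP-43iΔEC* mouse 1 the log2 fold change was -2.06.

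**Figure D1:**
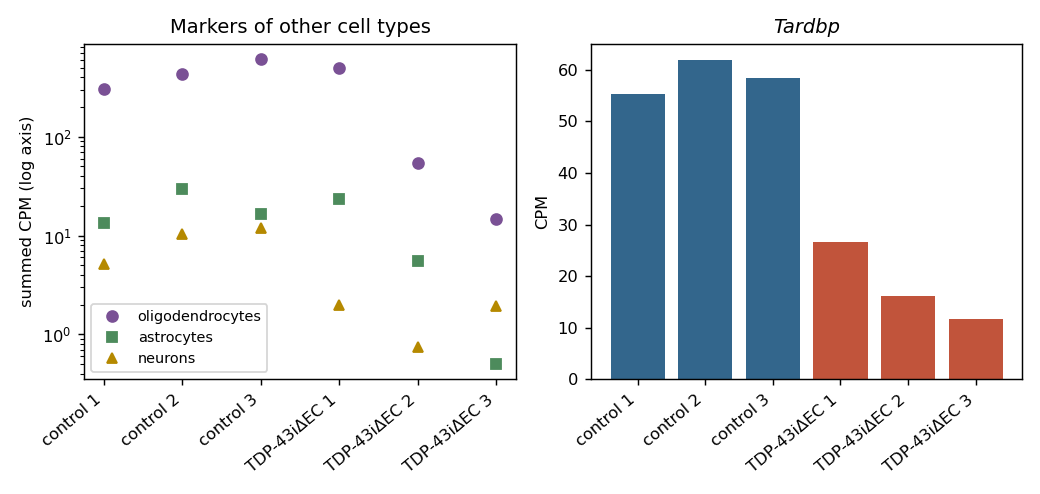
Left, the summed CPM of oligodendrocyte, astrocyte and neuronal markers in each of the 6 libraries on a log axis. Right, CPM of *Tardbp* in the same libraries, 1 bar per mouse. Control bars lie between 55.3 and 61.9 CPM and *TDP-43iΔEC* bars between 11.8 and 26.6 CPM, and *TDP-43iΔEC* mouse 1 has the highest *Tardbp* and the highest oligodendrocyte and astrocyte sums of its group.

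Levels of the 9 genes were compared per length, as CPM per kilobase of merged exons. In control mice *Hnrnpa2b1* had 51.7 ± 5.64 CPM per kilobase and *Hnrnpa1* 46.5 ± 12.3 (SD, n = 3 mice), and their ranges overlapped. *Hnrnpa3* (16.4 ± 7.23) and *Matr3* (13.6 ± 2.00) came next and also overlapped with each other, but not with the first pair. *Tardbp* (7.50 ± 0.425) and *Ewsr1* (6.61 ± 1.08) formed the next overlapping pair. *Tia1* (1.96 ± 0.645), *Atxn2* (1.77 ± 1.26) and *Taf15* (1.22 ± 0.899) were lowest, and their ranges overlapped. On this scale the 3 hnRNP A genes lay above *Tardbp* in every control mouse, and *Tia1*, *Atxn2* and *Taf15* lay below it.

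Over the 6 libraries, *Hnrnpa1* stood at the 95.2 percentile of the 13060 tested genes with a known length, *Matr3* at the 83.0 percentile, *Tardbp* at the 62.9 percentile and *Atxn2* at the 32.8 percentile. In *TDP-43iΔEC* mice *Tardbp* had 2.33 ± 0.979 CPM per kilobase, in place 6 of the 9 genes where it held place 5 in control mice. The order depends on the length used, since long alternative exons lengthen the merged exons of some genes. With the length of the canonical transcript, chosen after the lengths were seen, *Matr3* (25.1 CPM per kilobase in control mice) stood above *Hnrnpa3* (16.9), and *Ewsr1* (14.8) stood above *Tardbp* (7.82). On that scale the control ranges of *Tia1* (mean 7.05) and *Atxn2* (mean 6.20) overlapped that of *Tardbp*.

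**Figure D2:**
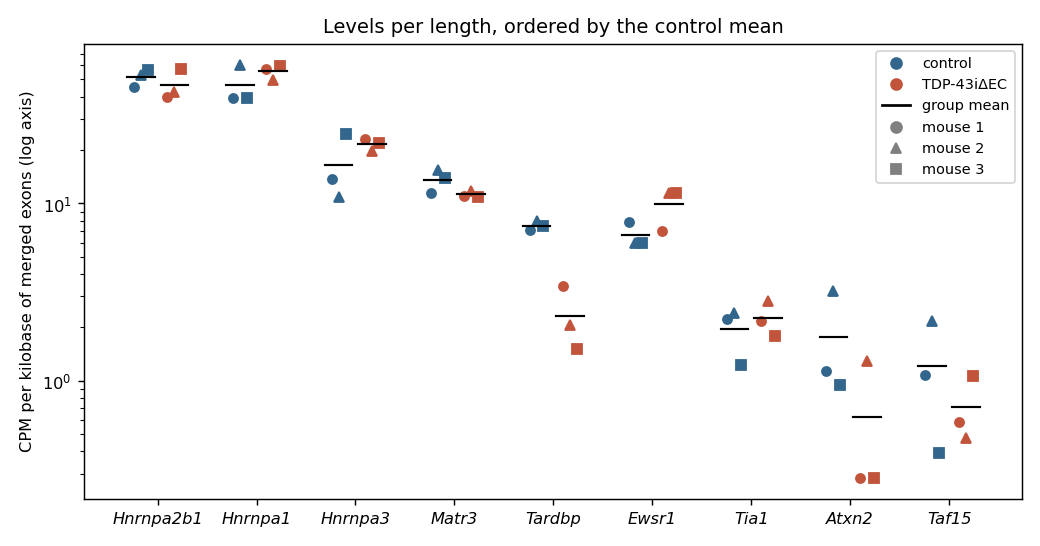
CPM per kilobase of merged exons for the 9 genes on a log axis, ordered by the control mean, with 1 point per mouse and a line at each group mean. *Hnrnpa2b1* and *Hnrnpa1* are highest, *Tardbp* has a control mean of 7.50 and a *TDP-43iΔEC* mean of 2.33, and *Atxn2* and *Taf15* are among the lowest with the widest spread.

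None of the 8 relatives differed past the threshold. In limma 0 of the 8 were higher with an adjusted p under 0.05 and 0 were lower, where 0.0305% of all genes tested were called higher and 0.107% lower. None had an unadjusted p under 0.05, where 9.27% of all genes tested did (4.26% higher and 5% lower). With edgeR, which called 0 of all 13107 genes (848 with an unadjusted p under 0.05), 0 relatives had an unadjusted p under 0.05. DESeq2, which called 1.97% of the genes that it adjusted, called 0 relatives. There *Ewsr1* alone had an unadjusted p under 0.05 (0.0455, with an adjusted p of 0.545 from DESeq2), beside 1113 of all 13107 genes. Log2 fold changes were above 0 for 4 relatives and below 0 for 4, with a median of 0.036, beside -0.015 for all genes tested. The groups overlapped for each of the 8 relatives, whereas they did not overlap for 15.3% of all genes tested (7.4% higher and 7.93% lower). *Tardbp* was among the 7.93%.

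The summed CPM of the 8 relatives was 1101 ± 108 in control mice and 1112 ± 122 in *TDP-43iΔEC* mice (SD, n = 3 each). *Tardbp* made up 5.34%, 4.96% and 4.88% of the summed CPM of all 9 genes in the control libraries, against 2.57%, 1.47% and 0.934% in *TDP-43iΔEC* mice 1, 2 and 3. Its share was thus lower in every *TDP-43iΔEC* library. The sum of its relatives was 980, 1186 and 1138 CPM in control mice 1, 2 and 3. In *TDP-43iΔEC* mice 1, 2 and 3 it was 1008, 1082 and 1247 CPM, with mouse 3 above every control mouse. The group means of this sum differed by less than the SD of either group. *Hnrnpa2b1* held the highest share of the 9 genes, with 44.4% to 49.1% in control mice and 40.1% to 47.7% in *TDP-43iΔEC* mice. The sum therefore reflects *Hnrnpa2b1* more than any other relative.

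**Figure D3:**
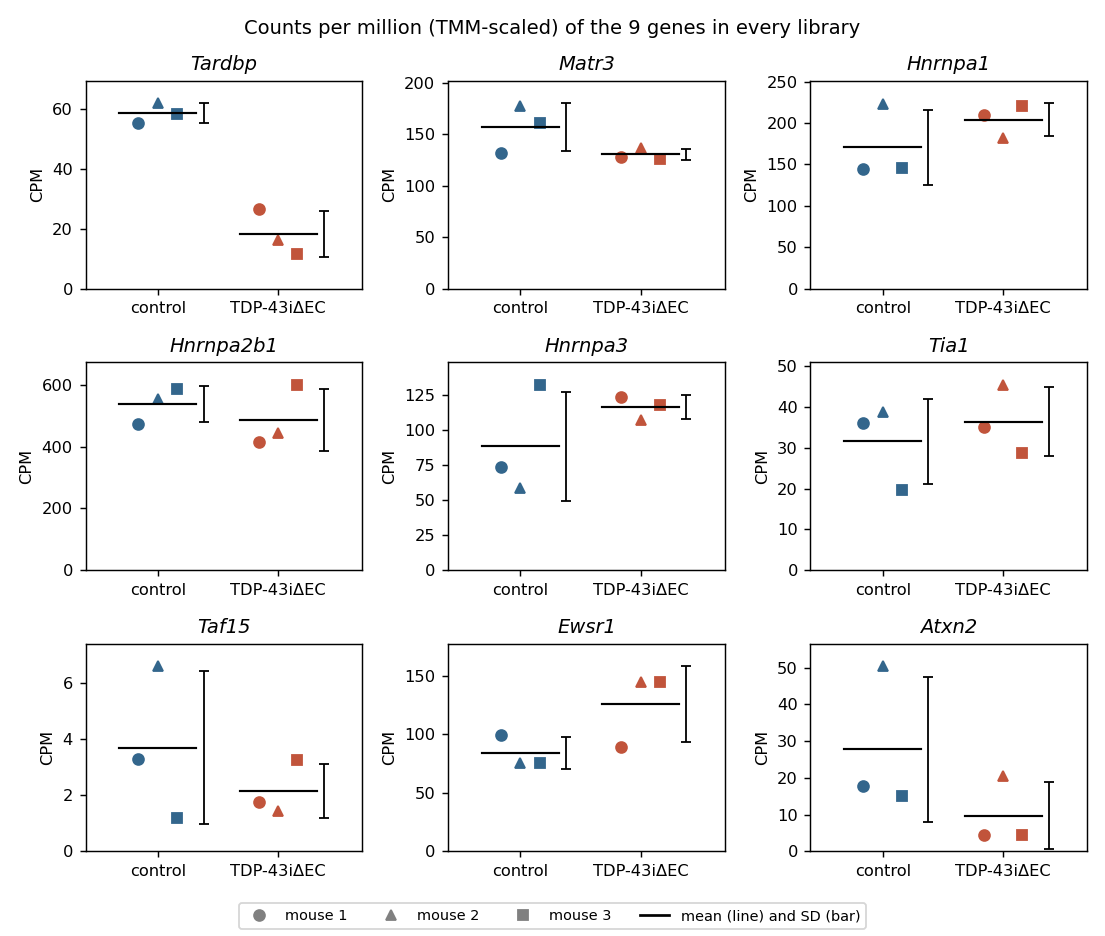
CPM of each of the 9 genes in every library, with 1 point per mouse (circle, triangle and square for mice 1, 2 and 3), a line at the group mean and a bar of 1 SD. The *Tardbp* panel is the one in which no *TDP-43iΔEC* point reaches the control points, while in the other 8 panels the groups overlap.

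Matrin-3, the product of *Matr3*, is a nuclear matrix protein that binds RNA and DNA and takes part in splicing. *Matr3* (chromosome 18, 35695173 to 35726888) had 132, 178 and 161 CPM in control mice 1, 2 and 3 and 128, 137 and 127 CPM in *TDP-43iΔEC* mice 1, 2 and 3. The *TDP-43iΔEC* mice lay close together (SD of 5.63 CPM), near the lowest control mouse. For *Matr3*, limma estimated a log2 fold change of -0.25 with a standard error of 0.21 (adjusted p = 0.694, limma; exact permutation test, p = 0.2). Its 95% confidence interval ran from 0.606-fold to 1.16-fold, so in this fit a rise of more than 1.16-fold lay outside it. That bound depends on the scaling. The log2 fold change was -0.070 (standard error 0.20) without TMM factors and -0.0017 (standard error 0.28) with scaling to EC marker genes.

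The hnRNP A proteins bind nascent transcripts, steer exon choice and carry mRNAs out of the nucleus. *Hnrnpa2b1* (chromosome 6, 51435248 to 51448049) had 473, 554 and 588 CPM in control mice and 415, 443 and 601 CPM in *TDP-43iΔEC* mice 1, 2 and 3. Mice 1 and 2 lay below all control mice and mouse 3 above them. For *Hnrnpa2b1*, limma estimated a log2 fold change of -0.19 with a standard error of 0.18 (adjusted p = 0.743, limma; exact permutation test, p = 0.5), with an interval from 0.665-fold to 1.16-fold, and its sign turned without TMM factors (0.0027) and with scaling to EC marker genes (0.064).

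*Hnrnpa1* (chromosome 15, 103148339 to 103155125) had 144, 223 and 145 CPM in control mice and 210, 182 and 220 CPM in *TDP-43iΔEC* mice. All 3 *TDP-43iΔEC* mice were above the control mean, but control mouse 2 had the highest value of all. For *Hnrnpa1*, limma estimated a log2 fold change of 0.29 with a standard error of 0.23 (adjusted p = 0.685, limma; exact permutation test, p = 0.4), with an interval from 0.857-fold to 1.74-fold.

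*Hnrnpa3* (chromosome 2, 75489605 to 75499751) had 73.7, 59.0 and 133 CPM in control mice and 124, 107 and 118 CPM in *TDP-43iΔEC* mice. It showed the same arrangement as *Hnrnpa1*, with 1 control mouse, here mouse 3, above all others. For *Hnrnpa3*, limma estimated a log2 fold change of 0.49 with a standard error of 0.31 (adjusted p = 0.630, limma; exact permutation test, p = 0.4), with an interval from 0.857-fold to 2.29-fold. With each mouse left out in turn it lay between 0.23 (without control mouse 2) and 0.82 (without control mouse 3), and no adjusted p passed the threshold in limma.

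The FET proteins EWS and TAF15 bind RNA and DNA and link transcription with splicing. *Ewsr1* (chromosome 11, 5017288 to 5049885) had 99.4, 75.7 and 75.8 CPM in control mice and 88.7, 145 and 145 CPM in *TDP-43iΔEC* mice 1, 2 and 3. Mice 2 and 3 lay above every control mouse, and mouse 1, which kept the most *Tardbp*, lay among them. At 0.51, with a standard error of 0.28, its log2 fold change was the highest of the 8 relatives, but it missed the threshold (adjusted p = 0.590, limma; exact permutation test, p = 0.2). Its interval ran from 0.916-fold to 2.21-fold. Leaving out *TDP-43iΔEC* mouse 1, 2 or 3 gave a log2 fold change of 0.80, 0.37 or 0.40, with unadjusted p of 0.0176, 0.276 and 0.237 and adjusted p of 0.630, 0.705 and 0.695 from limma. Over the 6 libraries, which fall into 2 groups, its log2 CPM had a Pearson correlation of -0.89 with that of *Tardbp*. For the other relatives this ran from -0.51 (*Hnrnpa3*) to 0.69 (*Matr3*), and these values are a description.

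*Taf15* (chromosome 11, 83363912 to 83397569) had the lowest control level per length of the 9 genes, from 141, 273 and 52 counts in the control libraries and 86, 45 and 84 counts in the *TDP-43iΔEC* libraries. These correspond to 3.29, 6.59 and 1.19 CPM and to 1.77, 1.44 and 3.24 CPM. The coefficient of variation of the control values alone was 73.8%. For *Taf15*, limma estimated a log2 fold change of -0.56 with a standard error of 1.44 (adjusted p = 0.921, limma; exact permutation test, p = 0.6), and its interval, from 0.0703-fold to 6.50-fold, spans a difference of several-fold in either direction.

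TIA-1 starts the assembly of stress granules, and ataxin-2 binds poly(A)-binding protein and the translation machinery. *Tia1* (chromosome 6, 86381127 to 86410387) had 36.1, 38.9 and 19.7 CPM in control mice and 35.0, 45.5 and 28.8 CPM in *TDP-43iΔEC* mice. The groups were interleaved. For *Tia1*, limma estimated a log2 fold change of 0.26 with a standard error of 0.40 (adjusted p = 0.849, limma; exact permutation test, p = 0.7), with an interval from 0.643-fold to 2.23-fold, and its sign turned without control mouse 3 (-0.060).

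*Atxn2* (chromosome 5, 121849400 to 121954556) had 17.9, 50.4 and 14.9 CPM in control mice and 4.44, 20.4 and 4.43 CPM in *TDP-43iΔEC* mice. The first and the third *TDP-43iΔEC* mouse lay below every control mouse, and mouse 2 lay above control mice 1 and 3. With a log2 fold change of -1.81 (standard error 0.94), *Atxn2* had a wider standard error than *Tardbp* (0.41). Its estimate lay below that of *Tardbp* in this fit (-1.62) but above it in edgeR (-1.51 against -1.69), in DESeq2 (-1.48 against -1.65) and in limma with sample quality weights (-1.15 against -1.71). It missed the threshold (unadjusted p = 0.0877 and adjusted p = 0.578, limma; exact permutation test, p = 0.3), and its interval ran from 0.0650-fold to 1.26-fold. It stayed below 0 with each mouse left out, between -2.41 and -1.17.

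Some of these genes share sequence with other annotated genes, and RSEM may divide reads among them. Annotated transcripts were matched over at least 51 bp, the length of 1 read, at 97% identity or more. *Hnrnpa3* had 31 pseudogene copies, of which 15 had counts that together came to 3.52% to 10.9% of those of *Hnrnpa3* in each library. Most came from *Gm5641* on chromosome 3, which is identical to *Hnrnpa3* over 1080 bp and had 299, 165 and 343 counts in the control libraries against 441, 148 and 108 counts in the *TDP-43iΔEC* libraries. With the copies added, the log2 fold change of *Hnrnpa3* was 0.45 (adjusted p = 0.648 from limma), an alternative chosen after the data were seen.

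*Hnrnpa1* had 12 pseudogene copies, which held 0.969% to 1.84% of its counts. A larger match lay in *Lztfl1*, a gene of ciliary protein transport on chromosome 9 (123517948 to 123546762). Its span also holds *Gm10052*, a pseudogene copy of *Hnrnpa1* (123518298 to 123519257). A transcript of *Lztfl1* annotated in GENCODE M39 matches *Hnrnpa1* over 1410 bp at 98.4% identity, whereas the counts were made with GENCODE M30. *Lztfl1* had 3098, 6287 and 2861 counts in the control libraries and 5375, 2127 and 3028 in the others. How many of these are reads of *Lztfl1* itself was not tested. Its counts were 45.1% to 68.1% of those of *Hnrnpa1* in control mice and 37.4% to 53.0% in *TDP-43iΔEC* mice. Control mouse 2 was highest for both genes among the control mice. With these counts and those of the pseudogenes added, also chosen after the data were seen, the log2 fold change of *Hnrnpa1* was 0.23 (adjusted p = 0.787 from limma).

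Other genes share 33.1% of the exonic bases of *Tardbp*, 45.6% of those of *Hnrnpa2b1* and 22.6% of those of *Matr3*, and the counting does not use the strand. The overlap of *Tardbp* is with *Masp2* on the opposite strand, a serine protease gene of the complement system, which had 0 counts in 5 libraries and 7 in *TDP-43iΔEC* mouse 3. *Nfe2l3*, which overlaps 30.4% of *Hnrnpa2b1* on the opposite strand, had 34 counts at most, but *Cbx3*, which overlaps 9.29%, had between 3582 and 8338 counts. *Snhg4*, on the same strand as *Matr3*, had 14 counts at most. No exon of *Taf15* overlaps another gene, and the overlaps of the other 5 genes covered 1.06% to 11.1% of their exonic sequence. On the opposite strand, *Sh2b3* overlaps 3.56% of *Atxn2* and had between 501 and 2614 counts. *Cbx5* overlaps 2.20% of *Hnrnpa1*, with between 1044 and 3605 counts, and *Rhbdd3* 6.61% of *Ewsr1*, with 156 counts at most.

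Beyond these 9 genes, 21 other hnRNP genes and 14 other stress granule genes were followed. Of the 21 other hnRNP genes, 0 passed an adjusted p of 0.05 in limma (0.137% of all genes tested) or in edgeR, which called no gene. In limma 3 had an unadjusted p under 0.05, all 3 higher in *TDP-43iΔEC* mice, where 4.26% of all genes tested were higher at that p. DESeq2, with 1.97% of the genes that it adjusted called, called 2 of the 21, *Hnrnpdl* (log2 fold change 1.15, adjusted p = 0.00994) and *Hnrnph1* (log2 fold change 1.03, adjusted p = 0.0240). Log2 fold changes were above 0 for 14 of the 21 genes (66.7%, beside 49.3% of all genes tested), with a median of 0.17. The 3 genes with an unadjusted p under 0.05 were also the ones whose groups did not overlap, all higher, where 7.4% of all genes tested were higher without overlap.

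*Hnrnpdl* encodes a relative of hnRNP D that takes part in alternative splicing. It had 65.7, 50.2 and 64.7 CPM in control mice and 138, 97.9 and 154 CPM in *TDP-43iΔEC* mice, a log2 fold change of 1.09 (standard error 0.27, unadjusted p = 0.00303 and adjusted p = 0.280 from limma). Every *TDP-43iΔEC* library lay above every control library, and the unadjusted p was close to that of *Tardbp* itself. *Hnrnph1*, whose protein binds G-rich RNA and steers splicing, was named after its values were seen and had 75.3, 61.3 and 95.4 CPM in control mice and 187, 137 and 137 CPM in *TDP-43iΔEC* mice. Its log2 fold change was 1.03 (standard error 0.26, unadjusted p = 0.00340 and adjusted p = 0.287 from limma). *Hnrnpll*, whose protein directs splicing in lymphocytes, had 10.0, 7.10 and 17.5 CPM in control mice and 46.0, 27.9 and 25.3 CPM in *TDP-43iΔEC* mice. Its log2 fold change was 1.64 (standard error 0.55, unadjusted p = 0.0151 and adjusted p = 0.430 from limma). Other genes share 20.4% of the exonic bases of *Hnrnpdl*, 13.96% of those of *Hnrnph1* and 3.33% of those of *Hnrnpll*.

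*Hnrnph3* had a larger estimate than *Hnrnpdl* and *Hnrnph1* (log2 fold change 1.18 with a standard error of 0.80 and an adjusted p of 0.642, limma), but its groups overlapped, with 2.61 to 15.3 CPM in control mice and 11.4 to 26.6 CPM in *TDP-43iΔEC* mice. At the other end were *Hnrnpa0* (-0.71, standard error 0.46), *Hnrnpr* (-0.65, standard error 0.47) and *Hnrnpl* (-0.26, standard error 0.48), with adjusted p of 0.637, 0.668 and 0.882 in limma, and the sign of *Hnrnpl* turned in DESeq2 (0.055). *Hnrnpa0* had 21.9, 50.1 and 45.9 CPM in control mice and 20.2, 22.1 and 28.2 CPM in *TDP-43iΔEC* mice, so 1 control mouse lay among the *TDP-43iΔEC* mice.

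Stress granules are assemblies of mRNA and protein that form when translation initiation stalls. Of the 14 other stress granule genes, 0 passed the threshold in limma, edgeR or DESeq2, beside 0.137%, 0% and 1.97% of the genes that each test adjusted. None had an unadjusted p under 0.05 in any of the 3 tests, beside 9.27% of all genes tested in limma. Log2 fold changes were above 0 for 5 and below 0 for 9, with a median of -0.099, and the groups overlapped for each of the 14, where 15.3% of all genes tested had groups that did not. Positive estimates included those of *Usp10* (0.51, standard error 0.52), a deubiquitinase that binds G3BP1, and of *Tial1* (0.38, standard error 0.48), the closest relative of *Tia1*. The lowest were those of *Fxr1* (-0.70, standard error 0.37), *Ddx6* (-0.54, standard error 0.46), an RNA helicase of processing bodies, and the granule scaffold gene *G3bp2* (-0.40, standard error 0.28). Adjusted p over the 14 genes ranged from 0.587 to 0.964 in limma.

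**Figure D4:**
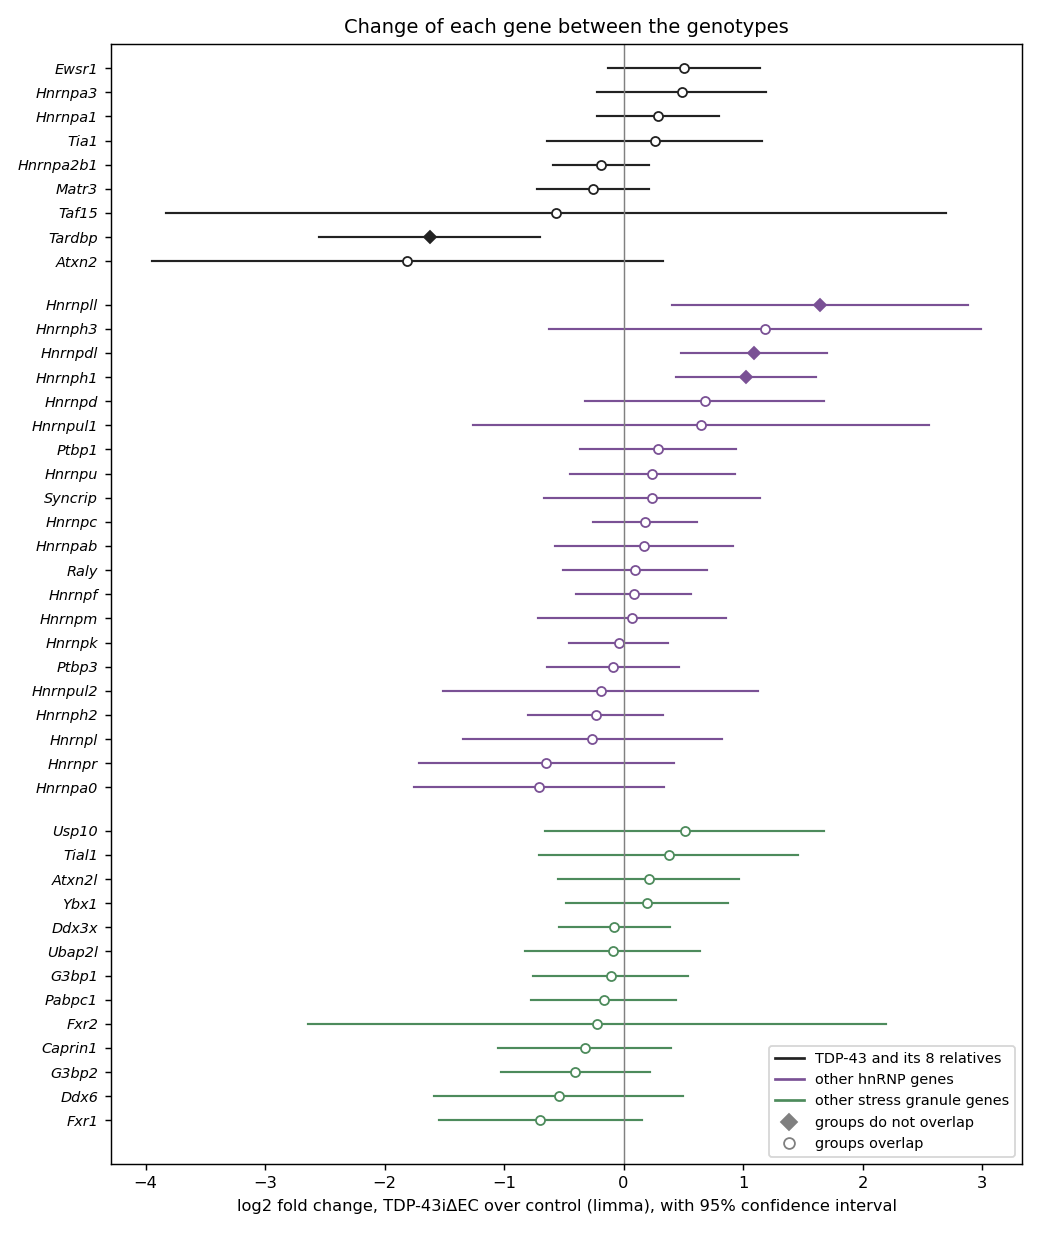
Log2 fold change of *TDP-43iΔEC* over control mice from limma with its 95% confidence interval, for *Tardbp* and its 8 relatives (black), the 21 other hnRNP genes (purple) and other stress granule genes (green, all of the 14 but 1). Filled diamonds mark the genes whose groups do not overlap, which are *Tardbp* on the lower side and *Hnrnpll*, *Hnrnpdl* and *Hnrnph1* on the higher side, and the interval of each of the 8 relatives spans 0.

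Among all tested genes, the 5 whose log2 CPM followed *Tardbp* most closely over the 6 libraries were *Fzd1*, *Itm2b*, *Ccdc28b*, *Eif3f* and *Ccdc134*, with Pearson correlations from 0.989 to 0.996. These are the highest values among 13107 genes over 6 libraries that fall into 2 groups, and they are given as a description. *Itm2b*, which encodes a membrane protein of the BRICHOS family, had 1504, 1635 and 1589 CPM in control mice and 1293, 1179 and 1062 CPM in *TDP-43iΔEC* mice. *Eif3f*, a subunit gene of the translation initiation factor eIF3, had 274, 294 and 287 CPM in control mice and 214, 190 and 151 CPM in *TDP-43iΔEC* mice. Both repeat the order of the libraries for *Tardbp*, with *TDP-43iΔEC* mouse 1 nearest to the control mice. All 5 genes were picked for this correlation, so a similar order and a difference between the groups come with the choice. *Ccdc134* had 16.0, 17.3 and 15.4 CPM in control mice and 0.309, 0 and 0 CPM in *TDP-43iΔEC* mice, and *Fzd1*, a Wnt receptor gene, had 5.69, 18.7 and 7.57 CPM in control mice and 0.329, 0.032 and 0 CPM. Their adjusted p ranged from 0.214 to 0.381 in limma.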

How the data were processed

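The authors sorted ECs from 3 control and 3 *TDP-43iΔEC* mice, made SMARTseq2 libraries without molecular identifiers, used STAR 2.7.8a to map reads of 51 bp to GRCm39, and estimated counts per GENCODE M30 gene with default RSEM 1.3.0. The number of cDNA amplification cycles varied and is not given per library. The deposited expected counts were whole numbers. No pair of libraries matched within counting noise (lowest chi-square over its degrees of freedom, 162).

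The 6 libraries were compared in R 4.3.3 with limma 3.58.1 (voom, no covariate), the method that the authors name, after TMM scaling and filterByExpr of edgeR 4.0.16, which left 13107 genes. Benjamini-Hochberg adjustment ran over these genes, with a threshold of 0.05. Exact permutation tests are 2-sided. The alternatives included edgeR's quasi-likelihood test and DESeq2 1.42.0. The procedures were also run on simulated counts, and no result given here rests on that run. Positions, exons and copies came from GENCODE M39 (98.7% of identifiers matched) and BLAST 2.17.0.

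The genes and lists were chosen with earlier results of these data known. Named genes are the 9 members, from each other list any gene past the threshold and otherwise the 3 highest and 3 lowest estimates, the 5 closest correlates of *Tardbp*, EC markers, and some of the overlapping or near-identical genes with counts. The values of 1 stress granule gene that this rule names are not reported here.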

Additional observations from a re-analysis of the deposited data

How the results depend on the processing

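Over 19 alternatives, of which 2 (near-identical copies added) were chosen after the data were seen, 0 of the 8 relatives passed the threshold under any, and their median log2 fold change stayed between -0.094 and 0.28. *Ewsr1* had an unadjusted p under 0.05 in limma by library size only (0.0353), scaled to 5 EC genes (0.0228) and without *TDP-43iΔEC* mouse 1 (0.0176). So did *Hnrnpa3* without control mouse 3 (0.0220, limma) and *Hnrnpa1* without control mouse 2 (0.0498, limma), all with higher estimates in *TDP-43iΔEC* mice. For *Hnrnpa3* and *Hnrnpa1*, the mouse left out had the highest value of all mice. Of all genes tested, 1295 of 13107 had an unadjusted p under 0.05 in limma by library size only and 1206 of 13107 scaled to EC genes. The count was 960 of 14210 without *TDP-43iΔEC* mouse 1. It was 1132 of 13997 without control mouse 3 and 1316 of 14381 without control mouse 2. *Tardbp* was lower under all 19, between -2.06 and -1.39 (-2.06 to -1.40 with each mouse left out), and passed the threshold with DESeq2 alone (log2 fold change -1.65). Its adjusted p ranged from 0.0216 to 0.564. Signs turned for *Hnrnpa2b1* when libraries were scaled by size only (0.0027) or to 5 EC genes (0.064), and for *Tia1* without control mouse 3 (-0.060, in a range up to 0.43 with each mouse left out). These 2 scalings shifted the median of all genes by 0.19 and 0.24.

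The count of all genes past the threshold (18) was 0 with edgeR (848 with an unadjusted p under 0.05), 250 with DESeq2, 10 by library size only, 1 scaled to EC genes, 76 without a filter, 39 with at least 10 counts in every library, and 0 to 13 with each mouse left out, the 0 without *TDP-43iΔEC* mouse 1 (960 with an unadjusted p under 0.05). DESeq2 called 2 of the other hnRNP genes. With the replicate number as a block, the log2 fold change of *Tardbp* was -1.54 and 22 genes passed. The labels do not say that the numbers pair the mice. Deviations from the group mean correlated between -0.13 and -0.029 for same-numbered mice, and between -0.043 and 0.12 for other pairs. Centering within each group ties these values together, so they cannot settle whether mice were paired. *Taf15* had the fewest counts of the 9 genes, 45 to 273. The cause of these differences was not tested.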
